A study of Bos taurus with 16 samples.

Results

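Expression of 10 genes of epithelial cell junctions was examined in CD14+ cells of pregnant cows. They were the claudins CLDN1, CLDN3, CLDN4, CLDN7 and CLDN8, cingulin (CGN), the zonula occludens protein TJP3, E-cadherin (CDH1), desmoplakin (DSP) and desmoglein 2 (DSG2). They are 10 of the 20602 gene names on the array. A probe was taken where its gene name or the symbol in its description matched one of the 10 genes, and all such probes are given. They numbered 11 of the 21475 probes on the array, 2 for CLDN1 and 1 for each other gene, with 2 spots each. A probe was tested where the scanner flagged it as well above background in 4 or more of the 8 channels of either tissue, and all 11 were among the 16653 probes that met this rule. CLDN8 and DSG2 met it in endometrium only, with 1 and 0 of their 8 blood channels well above background.

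Cells of 2 groups were compared, endometrial CD14+ cells and blood CD14+ cells. Both came from the same 4 cows, at days 164, 239, 242 and 248 of pregnancy (animals 1 to 4), collected at slaughter, with no treatment stated. CD14 is a receptor of monocytes and macrophages. The endometrial cells were released by enzymatic digestion of interplacentomal endometrium and sorted by flow cytometry for CD14, and the labels give the sorted cells a purity of 90 to 95%. The blood cells were sorted from mononuclear cells, with a stated purity of 98 to 99%. RNA was amplified before labeling, and each cow's 2 cell preparations were hybridized together on 2 arrays with 2 colors, as technical replicates on 2 slides. The dyes were exchanged between the 2 arrays of animals 1, 2 and 4 but not of animal 3. Values are log2 values from the authors' normalized table, averaged over both arrays of an animal. These arrays gave log2 ratios that differed by a median of 0.20 and at most 1.41 over the 11 probes. CD14 itself had log2 values from 6.07 to 14.04 in the endometrial cells and from 5.76 to 16.12 in the blood cells of the 4 animals, and none of the 16 channels failed to detect it. The median spot intensity of a channel lay between 48 and 155.5 in blood and between 52.5 and 402.75 in endometrium, over local backgrounds of 13 to 49.5, no spot was saturated, and the 4 animals limit the precision of every value.

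Epithelial cells are held together by junctions stacked along their sides. Tight junctions lie nearest the lumen, where claudins of neighboring cells bind each other and seal the space between them, while zonula occludens proteins and cingulin tie the claudins to the actin cytoskeleton. Adherens junctions lie beneath them and are built on E-cadherin, which binds E-cadherin of the next cell and holds catenins on its inner side. Desmosomes rivet cells at single points, with desmogleins and desmocollins as their adhesion molecules and desmoplakin as the link to keratin filaments. In the uterus these proteins are known from luminal and glandular epithelium, and in the placenta from trophoblast.

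All values rest on the oligonucleotides on the array, each 60 bases long. The sequences of the 6 probes that were called higher in endometrium are shown with that of CLDN4, which lies next to CLDN3 in assembly ARS-UCD2.0 and was not called. Capitals mark the longest run of bases that a probe shared, in the same orientation, with a probe of any other gene name on the array.
CLDN1 probe 1: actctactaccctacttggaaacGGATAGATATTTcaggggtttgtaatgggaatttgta
CLDN1 probe 2: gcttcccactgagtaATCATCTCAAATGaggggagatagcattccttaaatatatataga
CLDN3: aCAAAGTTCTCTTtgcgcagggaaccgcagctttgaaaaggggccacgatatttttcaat
CLDN8: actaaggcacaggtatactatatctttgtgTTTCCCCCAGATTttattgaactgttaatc
CDH1: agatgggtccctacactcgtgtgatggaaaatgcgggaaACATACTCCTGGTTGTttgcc
DSP: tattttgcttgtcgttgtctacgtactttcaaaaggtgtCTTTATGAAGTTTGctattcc
CLDN4: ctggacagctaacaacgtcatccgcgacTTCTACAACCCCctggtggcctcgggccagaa
Over all 11 member probes the longest shared run was 12 to 16 bases. Only exact runs were sought, so likeness to another gene's probe with mismatches was not tested. The run of 16 bases was that of CDH1. The G and C content ran from 35.0% in CLDN8, DSP and DSG2 to 60.0% in CLDN4, and the middle of all tested probes, from the 5th to the 95th percentile, spanned 35% to 60% as well. The 2 CLDN1 probes read different stretches of the same transcript record.

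CLDN1, CLDN3, CLDN8, CDH1 and DSP were higher in endometrial than in blood CD14+ cells, by measured folds of 17.0 to 46.3. With each blood channel set to no less than its lowest signal well above background, the folds of these 6 probes were 15.1 to 34.4, and the highest was then that of CDH1. A probe was called where its adjusted p did not exceed 0.05 and its fold change was above 2. Called in this way were 6 of the 11 probes, those 5 genes with both probes of CLDN1, against 1.23% of all tested probes. The members were chosen with earlier results of these data known, so the shares given here carry no test. None of the 11 was called higher in blood, where 0.12% of all tested probes were called. With the unadjusted p held to 0.05 in place of the adjusted one, 9 of the 11 passed as higher in endometrium, against 7.98% of all tested probes, and 0 as higher in blood, against 8.05%. For 10 of the 11 the endometrial value was above the blood value in 4 of 4 animals, against 9.82% of all tested probes, and for CLDN7 it was above in 1. The lowest endometrial animal lay above the highest blood animal for 5 of the 11, against 2.7% of all tested probes. These 5 were CLDN3, CLDN4, CLDN8, CDH1 and DSG2, but for DSG2 the values nearest each other were not well above background in either tissue. CLDN8 and DSG2 met the filter in endometrium only, which favors a higher endometrial value. Both are among the 9, the 10 and the 5 counted here, and CLDN8 is also among the 6 called. The median log2 ratio of the 11 probes was 4.43, and that of all tested probes was -0.14. The 6 calls depended on the source of the values. With normexp correction at an offset of 50, loess and quantiles applied to the scanner signals in place of the authors' values, 0 of the 11 were called, where 0.0661% of all tested probes were, and the lowest adjusted p was 0.070. By the unadjusted p 7 of the 11 passed, against 5.28% of all tested probes. Leaving out animal 4 also left 0 calls by limma and leaving out animal 1 left 3, with 9 of the 11 passing by the unadjusted p in both. Over all tested probes these settings left 0 and 63 calls higher in endometrium. By the unadjusted p 1335 and 1054 of all tested probes passed.

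**Figure D1:**
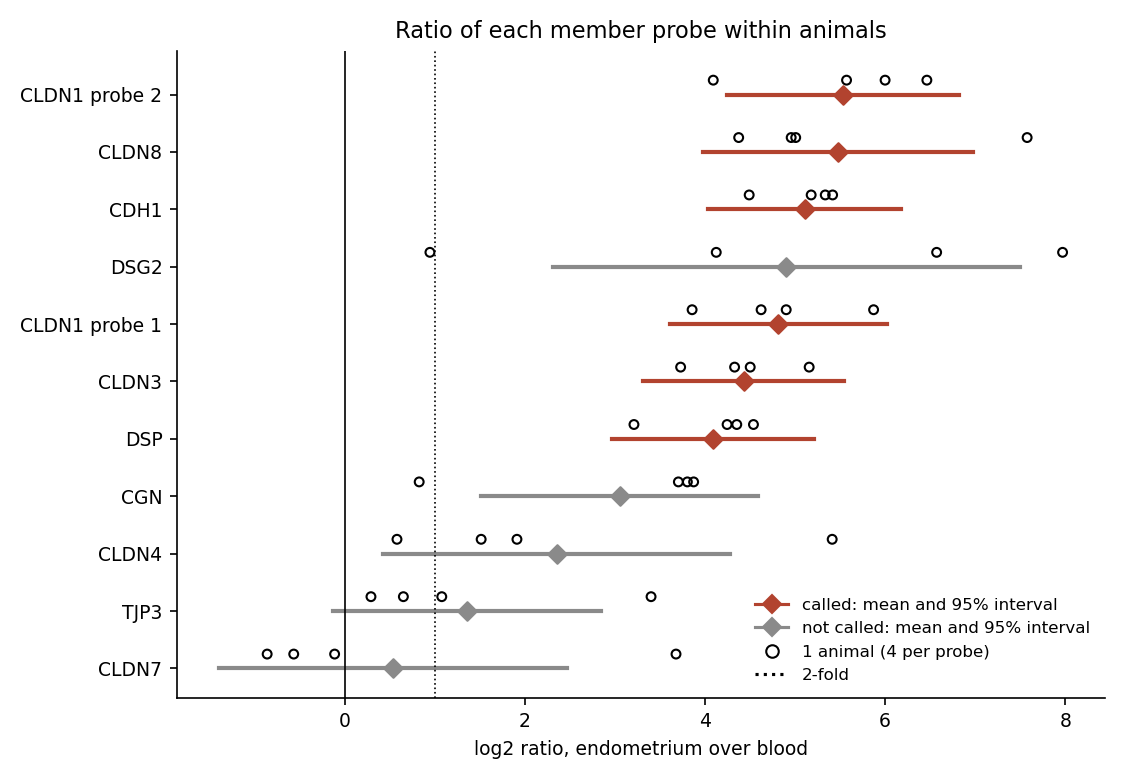
Log2 ratio of endometrium over blood for each of the 11 member probes, with the limma mean and its 95% confidence interval over 4 animals (diamond and bar) and the 4 animals (open circles). The 6 called probes (red) had mean ratios between 4.09 and 5.53, and the circles of DSG2, drawn at their measured ratios, use blood signals not well above background.

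Claudins span the membrane 4 times and form the strands of the tight junction. CLDN1 is a sealing claudin found in many epithelia. Its probe 1 had log2 values of 15.16, 10.10, 13.82 and 10.75 in endometrial cells and of 10.26, 4.23, 9.19 and 6.89 in blood cells of animals 1 to 4. Each cow's endometrial value was above its own blood value, but the groups overlapped, since the blood cells of animal 1 had more CLDN1 signal than the endometrial cells of animal 2. The log2 ratio was 4.81 ± 0.51 (SE, n = 4), which is 28.1-fold with a 95% interval of 12.2-fold to 64.9-fold, at an adjusted p of 0.0095 by limma. Probe 2 gave 13.57, 8.94, 12.31 and 9.99 in endometrial and 9.48, 2.94, 6.73 and 3.53 in blood cells, the same order of animals in both tissues as probe 1. Its log2 ratio was 5.53 ± 0.55 (SE, n = 4), or 46.3-fold as measured and 27.9-fold with dim blood channels at the floor, at an adjusted p of 0.0083. The 2 probes differed by 0.72 in their mean log2 ratio, and they disagreed most in animal 4, with ratios of 3.86 and 6.46. Probe 2 was well above background in 4 of the 8 blood channels and probe 1 in 6.

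CLDN3, another sealing claudin, was well above background in all 16 channels. Its log2 values were 11.49, 10.80, 14.78 and 11.50 in endometrial cells and 7.75, 5.65, 10.45 and 7.00 in blood cells. The groups did not overlap, and animal 3 was highest in both tissues. The log2 ratio was 4.43 ± 0.47 (SE, n = 4), or 21.6-fold with an interval of 9.95-fold to 46.7-fold, at an adjusted p of 0.0095. The ratios of the 4 animals lay between 3.73 and 5.16.

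CLDN8 is known as a barrier claudin of kidney tubules. It had log2 values of 10.03, 9.19, 12.29 and 8.13 in endometrial cells, well above background in all 8 channels. In blood cells it had 5.03, 4.23, 4.71 and 3.75, well above background in 1 of 8 channels, so these blood values lie close to the limit of detection. The groups were separated by more than 3 log2 units. The log2 ratio was 5.48 ± 0.64 (SE, n = 4), at an adjusted p of 0.012. That is 44.6-fold as measured and 32.4-fold with the dim blood channels at the floor, and both rest on blood values of which 1 of 8 was detected. Animal 3 had the largest of the 4 ratios, 7.58, and the other animals lay between 4.38 and 5.01.

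CLDN4 and CLDN7 are claudins that commonly occur beside CLDN3 in simple epithelia. CLDN4 had log2 values of 7.47, 6.27, 10.90 and 7.19 in endometrial cells and of 5.96, 5.69, 5.49 and 5.28 in blood cells. All 4 endometrial values were above all 4 blood values, but the distance was small in animal 2, with a ratio of 0.58, and large in animal 3, with 5.41. The log2 ratio of 2.36 ± 0.81 (SE, n = 4) did not pass, at an adjusted p of 0.25 and an interval of 0.43 to 4.28. CLDN7 had 5.06, 5.71, 9.61 and 6.13 in endometrial cells and 5.92, 5.82, 5.93 and 6.69 in blood cells. Only animal 3 had more CLDN7 signal in its endometrial cells, with a ratio of 3.68, and the other animals had ratios of -0.86, -0.11 and -0.56. Over the 4 animals the log2 ratio was 0.54 ± 0.82 (SE, n = 4), at an adjusted p of 0.79 and an interval of -1.39 to 2.47, and without animal 3 it was -0.51.

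**Figure D2:**
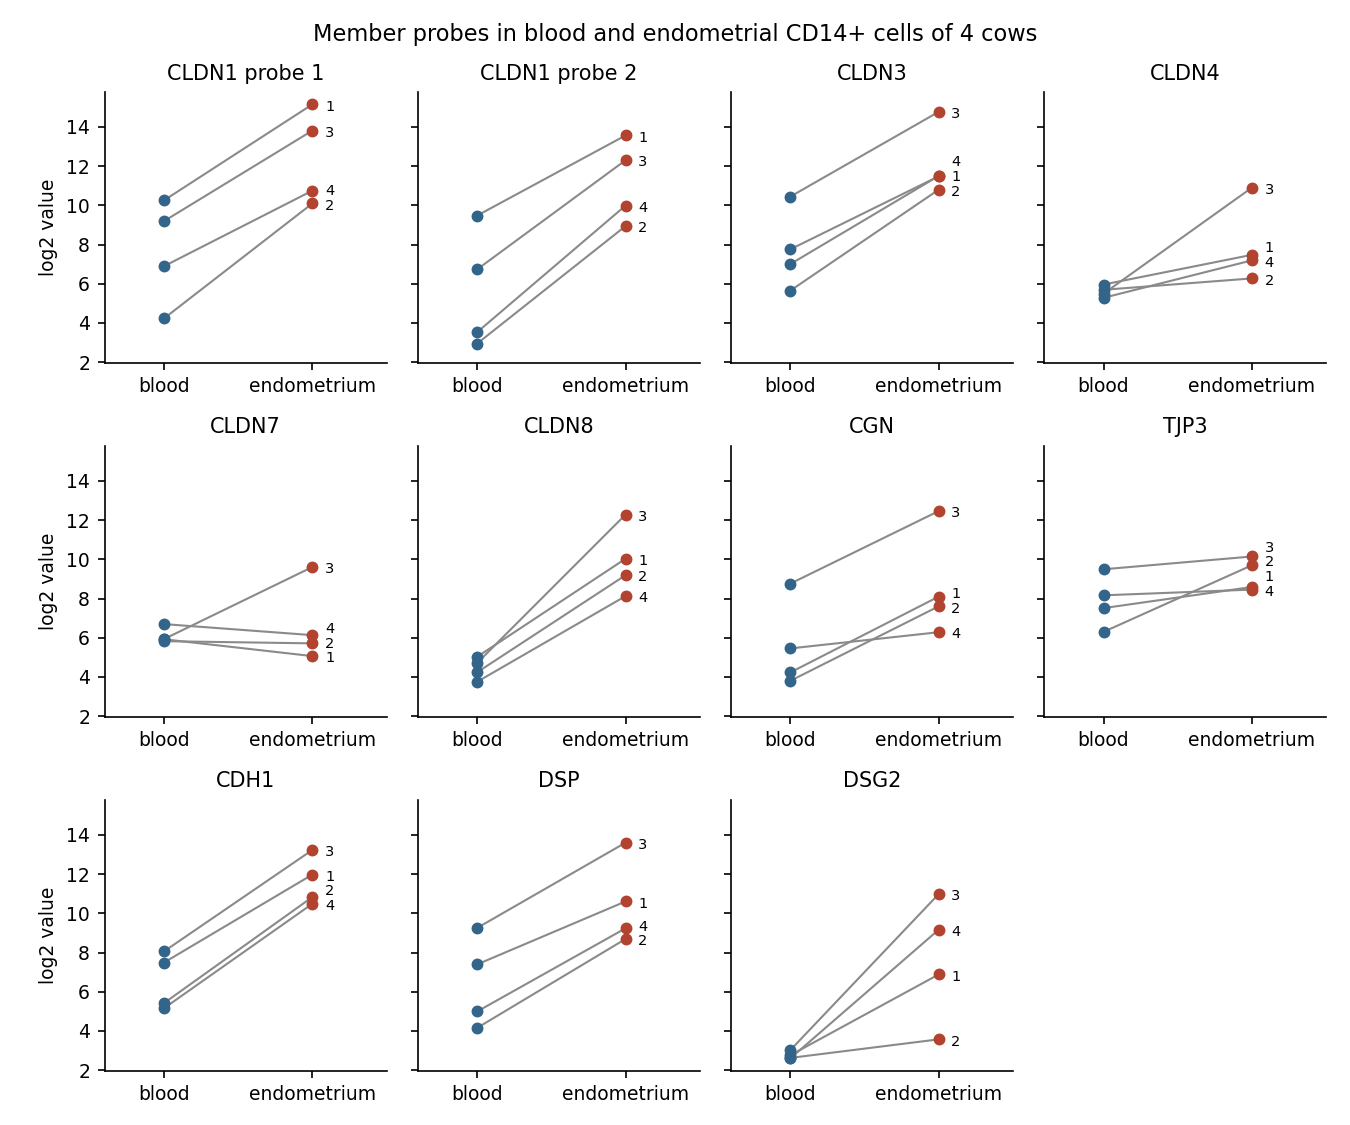
Log2 value (vertical axis) of each member probe in blood (blue) and endometrial (red) CD14+ cells, 1 panel per probe, with a line for each cow and its number at the endometrial end. Each point is the mean of 2 arrays, and levels are to be compared within a panel only. The 4 lines of CDH1 run in parallel, and for CLDN7 only the line of animal 3 slopes upward.

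CGN and TJP3 sit on the inner face of the tight junction. CGN links the junction to actomyosin, and its log2 values were 8.10, 7.60, 12.47 and 6.28 in endometrial cells and 4.23, 3.80, 8.76 and 5.45 in blood cells. Animals 1, 2 and 3 had ratios between 3.71 and 3.88, and animal 4 had 0.83. CGN was well above background in 4 of the 8 blood channels, those of animals 3 and 4. The ratios of animals 1 and 2 thus rest on blood signals not well above background. The mean log2 ratio of 3.05 ± 0.65 (SE, n = 4) did not pass, at an adjusted p of 0.10 and an interval of 1.52 to 4.59. TJP3, a scaffold with PDZ domains that binds claudin tails, had 8.59, 9.70, 10.15 and 8.46 in endometrial cells and 7.51, 6.30, 9.49 and 8.16 in blood cells, and all 16 channels detected it. Its groups overlapped, and animal 2 gave the largest ratio, 3.40, against 0.29 to 1.08 in the others. The log2 ratio of 1.36 ± 0.63 (SE, n = 4) did not pass, at an adjusted p of 0.34 and an interval of -0.13 to 2.84.

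CDH1 had the most even change of the 11 probes, with an SD of 0.42 between the ratios of the 4 animals. The gene encodes E-cadherin, the calcium-dependent adhesion molecule of epithelial adherens junctions. Its log2 values were 11.98, 10.84, 13.24 and 10.49 in endometrial cells and 7.49, 5.42, 8.06 and 5.16 in blood cells. CDH1 was well above background in 6 of the 8 blood channels. The groups did not overlap, and the animals kept the order 3, 1, 2, 4 in both tissues. The log2 ratio was 5.11 ± 0.45 (SE, n = 4), or 34.4-fold with an interval of 16.4-fold to 72.3-fold, at an adjusted p of 0.0073. It ranked at place 52 among the log2 ratios of all tested probes.

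DSP, which anchors keratin filaments to the desmosome, had log2 values of 10.61, 8.69, 13.61 and 9.24 in endometrial cells and of 7.40, 4.15, 9.26 and 4.99 in blood cells. The blood cells of animal 3 were above the endometrial cells of animals 2 and 4, so the groups overlapped although each animal's ratio lay between 3.21 and 4.54. DSP was well above background in 6 of the 8 blood channels. The ratio of 4.54, that of animal 2, rests on blood signals not well above background. The log2 ratio was 4.09 ± 0.47 (SE, n = 4), or 17.0-fold as measured and 15.1-fold with dim blood channels at the floor, at an adjusted p of 0.012. With each array as a unit, a slide term and the animal as a random block, the adjusted p of DSP was 0.11 and that of CLDN8 0.054. DSG2, a desmosomal cadherin, was well above background in 6 endometrial channels and in 0 of 8 blood channels. Its log2 values were 6.88, 3.57, 10.99 and 9.17 in endometrial cells and 2.76, 2.62, 3.02 and 2.60 in blood cells. The blood values were not well above background and do not give a level. With each blood channel at no less than its lowest signal well above background, DSG2 was 7.60-fold higher in endometrium. That floor is not an upper limit for an undetected probe, so the fold is not a minimum. With normexp values the log2 ratio of DSG2 was 1.28. Its measured log2 ratio of 4.90 did not pass, at an adjusted p of 0.12 by limma. The endometrial cells of animal 2 were not well above background in either channel, while those of the other animals were in all 6 of theirs. Without animal 2 the adjusted p was 0.033.

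The SD of the log2 ratio between animals ran from 0.42 for CDH1 to 2.12 for CLDN7, leaving out DSG2, and 2 arrays of an animal differed by up to 1.41 for DSP and 0.96 for CLDN1 probe 1. The median of the 11 ratios was 3.88, 4.54, 4.62 and 4.25 in animals 1 to 4. Animal 3 had the highest endometrial value for 9 of the 11 probes and animal 1 for both CLDN1 probes. In blood, animal 3 had the highest value for 6 of the 11 and animal 1 for 4. Over all tested probes the ratios of animal 3 were also the most spread, with an SD of 2.37 against 1.39 to 1.63 in the other animals, and animal 3 was the one without exchanged dyes. Without animal 3, 6 of the 11 probes were still called and the median ratio was 4.00. Within animals, the deviations of the 2 tissues from their group means were correlated over all tested probes at r of 0.63, 0.37, 0.24 and 0.45, so that an animal high in one tissue tended to be high in the other. Against the mean of the other member genes, over the 8 combinations of animal and tissue, Pearson's r was highest for CLDN3 at 0.97, DSP at 0.97 and CDH1 at 0.94, and lowest for CLDN7 at 0.53. These 8 points include both tissues, so r reflects the tissue difference as well as the differences among animals. Within the 4 endometrial preparations r was 0.85 to 0.996 for CLDN3, CLDN4, CLDN7, CLDN8, CGN, CDH1 and DSP, but 0.53 and 0.52 for the CLDN1 probes, 0.53 for TJP3 and 0.67 for DSG2.

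By the same measure, the named genes most like the mean of the members over the 8 points included PACSIN3 with r of 0.996, LOXL4 and OXTR with 0.984 and 0.982, and CKMT1 with 0.981. The 5 most like CDH1 were CYP4A11 with r of 0.990, ARHGEF5 with 0.987, the prolactin-related protein PRP6 with 0.986, SMAD1 with 0.985 and GATM with 0.983. Each of these 9 genes was itself called higher in endometrium, with log2 ratios of 3.37 to 5.74. Such values of r describe the arrays and carry no test.

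The other junction genes followed the members only in part. Of 62 tested genes on 6 lists of junction components without the members, 5 were called higher in endometrium, 8.06% against 1.23% of all tested probes. None was called higher in blood, against 0.12%. By the unadjusted p 17 passed in endometrium and 1 in blood, against 7.98% and 8.05% of all tested probes. The lists were chosen with earlier results of these data known, so these shares carry no test. Of the 62, OCLN, CDH5, CDH13 and PVRL3 had 0 blood channels well above background. They met the filter in endometrium only, which favors a higher endometrial value, and PVRL3 is among the 5 called. The median log2 ratio of the 62 was 0.43. With normexp values 0 of the 62 were called and 9 passed unadjusted in endometrium, against 0.0661% and 5.28% of all tested probes. Without animal 1 or animal 4 there were also 0 calls, with 15 and 13 passing unadjusted, and without animal 3 there was 1 call. Over all tested probes 63, 0 and 94 were called higher in endometrium without animals 1, 4 and 3. Without animals 1 and 4, 1054 and 1335 of all tested probes passed unadjusted.

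None of the 9 other claudins tested was called in either direction by limma, and 0 passed by the unadjusted p. Their median log2 ratio was 0.05, and 0 of the 9 were above the blood value in 4 of 4 animals. The largest difference was that of CLDN12, with a log2 ratio of 1.70 ± 0.82 (SE, n = 4) and an adjusted p of 0.36. It was followed in size by CLDN11 with -0.72 and CLDN9 with -0.67. CLDN10, CLDN16, CLDN17 and CLDN23 were too dim to be tested, and CLDN16 and CLDN17 are the neighbors of CLDN1 and CLDN8 in assembly ARS-UCD2.0. Among the 20 other tight junction genes, RAB13, a small GTPase that acts in delivery of junction proteins, and AMOTL1, an angiomotin family scaffold, were called. RAB13 had a log2 ratio of 5.09 ± 0.66 (SE, n = 4) and AMOTL1 one of 3.58 ± 0.49, at adjusted p of 0.018 and 0.021. The polarity scaffold PARD3 had 2.68, TJP1 2.26 and INADL 2.11, at adjusted p of 0.26, 0.23 and 0.30. The tight junction protein OCLN was above background in 4 endometrial channels and in 0 blood channels, and did not pass at an adjusted p of 0.51.

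Of 7 other cadherins tested, 0 were called in either direction, with 3 passing unadjusted in endometrium and 0 in blood, and the median log2 ratio was 0.42. The 3, CDH5, CDH13 and CDH16, met the filter in endometrium only. CDH3, the neighbor of CDH1 in assembly ARS-UCD2.0, had a log2 ratio of 0.42 ± 0.49 (SE, n = 4). CDH16 had 3.20 with an adjusted p of 0.12. CDH13 was not well above background in blood and was 2.58-fold higher in endometrium with blood at the same floor as for DSG2. Its measured ratio did not pass, at an adjusted p of 0.064 by limma. The same held for CDH5, an endothelial cadherin, which was 1.79-fold higher with blood at the floor, with an adjusted p of 0.23 for its measured ratio. Of 10 other adherens junction genes only PVRL3, a nectin, was called. It was detected in 0 of 8 blood channels and was 5.79-fold higher in endometrium with blood at the floor. Its measured ratio had an adjusted p of 0.021 by limma. Another nectin, PVRL4, had a log2 ratio of 2.83 with an adjusted p of 0.15. The catenins, which bind the inner part of E-cadherin or link it to actin, had log2 ratios of 1.59 for CTNNA1, 0.48 for CTNNB1 and 1.56 for CTNND1, at adjusted p of 0.27, 0.71 and 0.28. Of 7 other desmosome genes only PPL, periplakin, was called, with a log2 ratio of 3.80 ± 0.62 (SE, n = 4) and an adjusted p of 0.040. The desmocollin DSC2 had 3.20 and the plakophilin PKP4 1.66, at adjusted p of 0.17 and 0.30. DSG1, DSG3, DSG4, DSC1, DSC3 and PERP were too dim to be tested. Of 9 gap junction genes only GJB1, a connexin, was called, with a log2 ratio of 4.19 ± 0.45 (SE, n = 4), an adjusted p of 0.0097 and animal ratios of 3.93 to 4.76. The connexins GJB6, GJA1 and GJB2 had 2.64, 2.02 and 1.73, at adjusted p of 0.39, 0.39 and 0.56.

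Tests also covered 9 transcription factors known at the CDH1 gene. OVOL2, a zinc finger repressor of mesenchymal genes in epithelia, was called, with a log2 ratio of 5.15 ± 0.63 (SE, n = 4) and an adjusted p of 0.014. It was also the only one of the 9 to pass by the unadjusted p, and no repressor of E-cadherin on the list was called. Of all tested probes 1.23% were called higher in endometrium and 7.98% passed unadjusted. With normexp values, with no filter on dim probes, without animal 1 and without animal 4, 0 of the 9 were called. Those settings left 11, 115, 63 and 0 calls over all probes tested. In them 1, 1, 2 and 1 of the 9 passed unadjusted as higher in blood. SNAI1 had a log2 ratio of -1.002, ZEB1 one of -0.60, ZEB2 one of -1.31 and TWIST1 one of -1.35, at adjusted p between 0.35 and 0.75, and SNAI2 had 1.73 with an adjusted p of 0.39. GRHL2, an activator of CDH1, had 1.12 with an adjusted p of 0.48. The median of the 9 was -0.60.

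**Figure D3:**
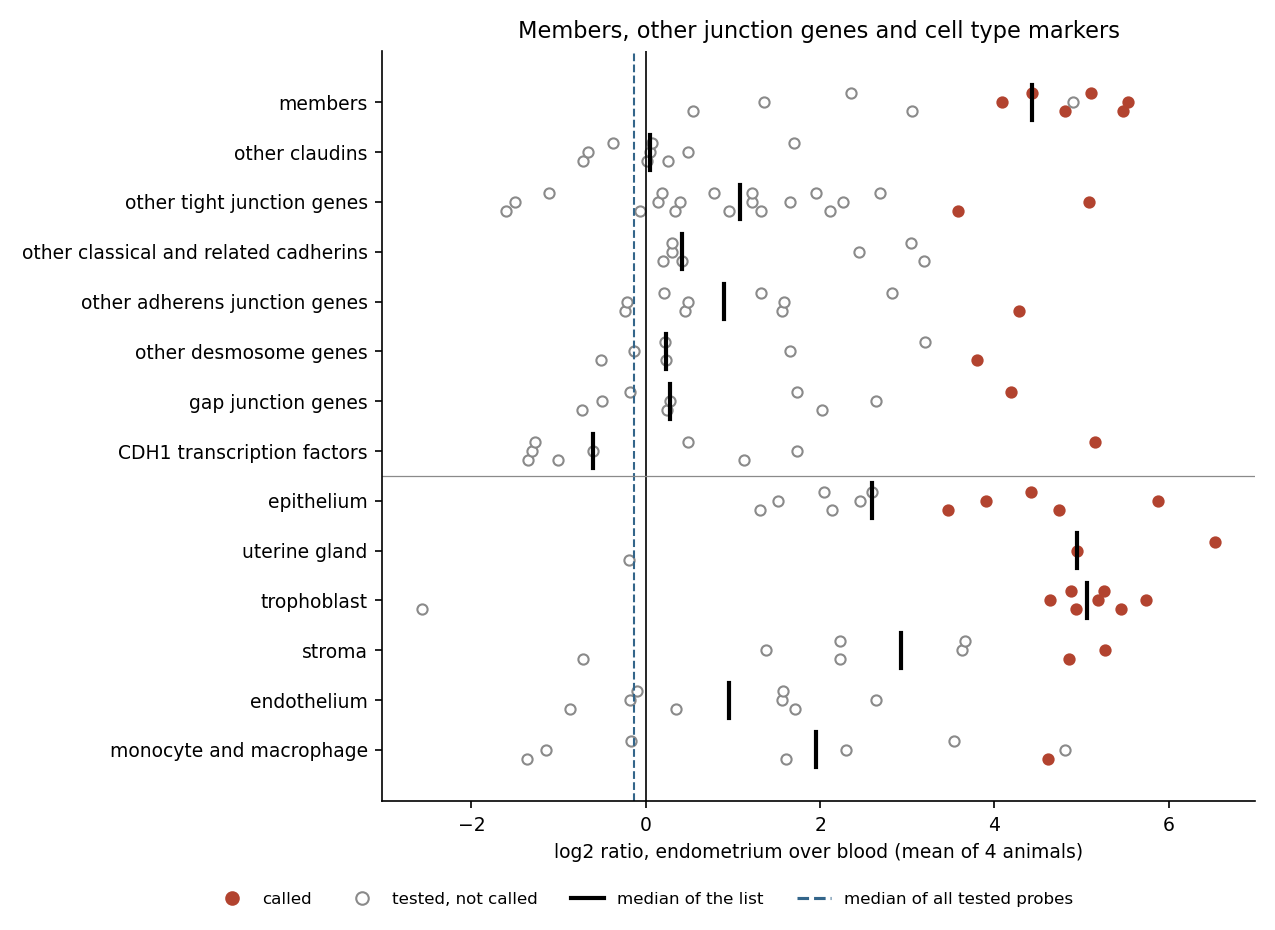
Mean log2 ratio of endometrium over blood over 4 animals (horizontal axis) for the 11 member probes and for each tested gene of the other junction lists, the CDH1 transcription factors and, below the line, 6 lists of cell type markers. Filled circles were called, black bars are medians of a list and the dashed line is the median of all tested probes, -0.14. Genes with no blood channel above background are drawn at their measured ratio. The medians were 4.43 for the members, 0.05 for the other claudins, 2.59 for epithelium and 5.06 for trophoblast.

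Markers of epithelium, uterine gland, trophoblast and stroma and 1 of monocytes and macrophages were also among the genes called higher in endometrium. Those of endothelium were not. RNA was taken from whole sorted preparations, so that more cells of a type and more RNA per cell cannot be told apart. Over all tested probes 1.23% were called higher in endometrium, and 7.98% and 8.05% passed by the unadjusted p in endometrium and in blood. The share of all tested probes with a fold change over 2 alone was not counted. Of 11 epithelial markers tested, 5 were called higher in endometrium, KRT7, KRT8, KRT18, EPCAM and TSPAN1. All 11 had a fold change over 2 in that direction, and their median log2 ratio was 2.59. The mean log2 value of the list lay between 8.59 and 13.28 in endometrial cells and between 6.19 and 8.48 in blood cells, and KRT23, too dim to be tested, was detected in 0 channels. Of 8 trophoblast markers 7 were called, the placental hormones CSH1, PRP1, PRP6 and PRP8 and the pregnancy-associated glycoproteins PAG4, PAG7 and PAG10, and PAG1 was not, with a log2 ratio of -2.57 and an adjusted p of 0.17. Their median was 5.06, and the list lay between 12.12 and 13.11 in endometrial cells and between 7.46 and 8.95 in blood cells. CSH1, placental lactogen, had log2 values of 12.33, 12.72, 13.75 and 11.27 in endometrial and 7.52, 7.04, 8.59 and 5.11 in blood cells. Of 3 uterine gland markers tested, SERPINA14 and S100G were called, with log2 ratios of 6.53 and 4.94, and PAEP was not, with -0.19. The list lay between 10.49 and 12.83 in endometrial and between 7.47 and 8.37 in blood cells. Of 8 stromal markers COL3A1 and DCN were called, the median was 2.93, and the list lay between 5.63 and 14.72 in endometrial and between 4.77 and 9.56 in blood cells. Of 8 endothelial markers 0 were called, with 1 passing unadjusted in endometrium and 0 in blood, the median was 0.96, and the list lay between 5.02 and 9.52 in endometrial and between 5.94 and 7.21 in blood cells. Of 8 monocyte and macrophage markers only MSR1, a scavenger receptor, was called, with a log2 ratio of 4.61, while 5 passed by the unadjusted p and the median was 1.95. CD14 had a log2 ratio of -0.17 ± 0.60 (SE, n = 4) and an adjusted p of 0.92, and the list lay between 7.61 and 13.55 in endometrial and between 6.69 and 12.90 in blood cells. The calls of these lists varied with the settings. With normexp values 0 epithelial, 1 gland, 5 trophoblast, 0 stromal and 0 monocyte and macrophage markers were called, with 8, 2, 7, 2 and 5 passing by the unadjusted p. Over all tested probes these normexp shares were 0.0661% and 5.28%. Without animal 4 there were 0 calls by limma in each list, and 8 epithelial and 7 trophoblast markers passed by the unadjusted p. Of all tested probes 0 were then called higher in endometrium and 1335 passed unadjusted. Without animal 1, 2 or 3 the epithelial calls were 1, 2 and 1, the trophoblast calls 6, 7 and 7, and the stromal calls 0, 3 and 0. Over all tested probes 63, 176 and 94 were then called higher in endometrium.

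By animal, the median log2 ratio of the epithelial markers was 2.81, 3.19, 4.67 and 1.87 in animals 1 to 4, that of the trophoblast markers 4.63, 5.002, 5.43 and 5.19, and that of the stromal markers 5.93, 0.67, 3.70 and 1.98. It was 4.50, 4.47, 5.23 and 5.57 for the uterine gland markers and 1.32, 0.39, 2.71 and 3.15 for the monocyte and macrophage markers. For the endothelial markers it was 3.03, -0.79, 2.89 and -0.34. Animal 3 was highest for the epithelial and trophoblast markers and animal 4 for the gland and monocyte and macrophage markers. Animal 1 was highest for the stromal and endothelial markers. The medians of the members in animals 2 and 3 were close, at 4.54 and 4.62. The part that cells of these types had in the ratios of the junction genes was not tested.

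The members were then read from the scanner's signals of the same arrays. With the scanner's processed signal the 11 log2 ratios lay between 0.65 and 5.67 and 6 were called, as with the authors' table. Probe means of the authors' table follow the ranks of the processed signal. These sources are therefore not independent, and their equal calls are no separate support. With normexp at an offset of 50, loess and quantiles, all 11 ratios were still above 0 but none exceeded 3.31. CDH1 had 3.19 and CLDN3 3.24, both at an adjusted p of 0.070, CLDN1 had 3.31 and 2.81 at 0.16 and 0.19, DSP 2.27 at 0.25 and CLDN8 2.21 at 0.26. The values that shrank most were those of probes dim in blood, DSG2 from 4.90 to 1.28 and CLDN8 from 5.48 to 2.21. The median of the 11 ratios was 2.21, and that of all tested probes -0.02.

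**Figure D4:**
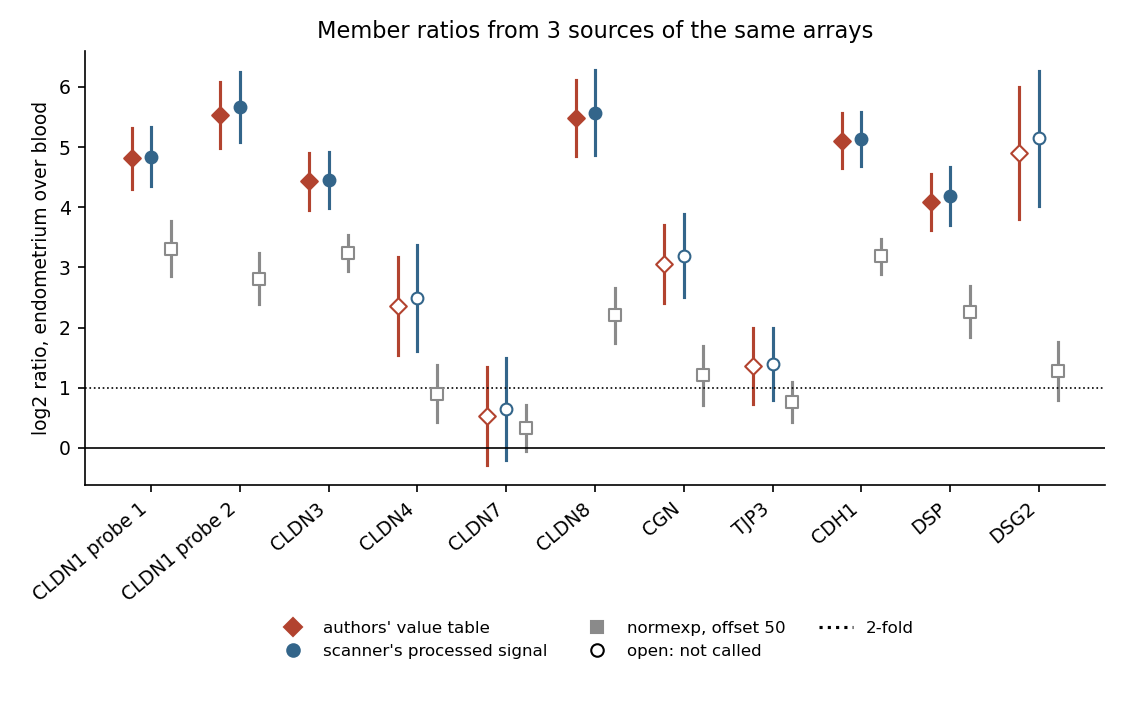
Log2 ratio of endometrium over blood (vertical axis) of each member probe, from the authors' value table, the scanner's processed signal and normexp-corrected signals of the same 8 arrays. Points are means over 4 animals and bars 1 SE, and filled points were called. Normexp ratios lay between 0.33 and 3.31 with no call, and the other sources gave 6 calls each. Those other sources share the ranks of their values and are not independent.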

How the data were processed

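Endometrial and blood CD14+ cells of 4 cows were profiled on 8 bovine oligonucleotide arrays with 2 colors, in 16 samples. The authors deposited a scanner file for each sample, with the intensity of each spot and a processed intensity corrected for background and dye by Feature Extraction (version 9.5 per the labels and 10.5.1.1 per the file headers). They also deposited a table of log2 values, after lowess normalization of each array and quantile normalization of the channels, as their methods state. Every column of this table had a median of 8.00. The columns were set against the scanner files. For this, the processed signals of a channel were ranked and each rank was given the column's own value of that rank. The match is therefore one of rank order. Probe means of all 16 columns then equaled, at 100% of probes within 0.001, those of the dye named by the label in the scanner file of the animal's other array. They equaled those of the file given for the sample itself at no more than 0.689% of probes. By single spot 40.9% to 41.0% were equal to the matched channel. Background flags and scanner signals were read through that match. Ratios of different animals, taken from the deposited table and so not dependent on that match, had r of 0.196 to 0.369 over all tested probes. Reading the files as attached would exchange the tissues in the animals with exchanged dyes. With the sign of their ratios turned to mimic this, animal 3 had r of -0.369 to -0.338 with the other animals. These values follow from the turned sign and are no test of the match.

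Log2 values of the deposited table were averaged over the spots of a probe and the 2 arrays of an animal. The log2 ratio within animals was tested against 0 with limma 3.58.1 (lmFit and eBayes, in R 4.3.3, with statmod 1.5.0 and version 1.17.8 of data.table) over 16653 probes, with p-values adjusted by Benjamini and Hochberg over all of them. Calls required an adjusted p no higher than 0.05 with a fold change above 2. An exact test over 4 pairs cannot give a p under 0.125. Pairing came from the labels, which number the animals. The 4 animals are the replicates, and the 2 arrays of an animal were counted as 1 replicate. Alternatives changed the source of the values, the filter, the pairing, the slide term, the test, its threshold and the animals. Up to 18 outlier spots of a channel, none of a member, were left out of the normexp values.

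The members and lists of genes were chosen with earlier results of these data known. Of several probes of a listed gene the brightest was taken. Each list is given by its called genes and at most 3 more with the largest difference, beside genes named for their role in the text, chosen after their values were seen. Names of all 11 member probes also matched the gene table of assembly ARS-UCD2.0, whose coordinates were not used because the build of the files differs. qPCR and flow cytometry were not analysed here, and 1 gene of the comparison of patterns is not reported here.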

Additional observations from a re-analysis of the deposited data

Results flagged for a closer look

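For each member probe, the 4 animals were examined for 1 that lay far from the other 3, separately in the endometrial values, the blood values and the log2 ratios, which made 33 sets of 4 values. In 3 of them the gap between the outermost animal and the next, divided by the whole range, exceeded Dixon's critical value for 4 values, and chance alone gives about 1 in 20. The CLDN7 log2 value of 6.69 in the blood cells of animal 4 was above the other 3 animals, which had 5.82 to 5.93. The CLDN7 log2 ratio of 3.68 in animal 3 was above the other 3 animals, whose ratios were all below 0. The CGN log2 ratio of 0.83 in animal 4 was below the other 3 animals, which had 3.71 to 3.88. Of these, the ratios of animals 1 and 2 rest on CGN blood signals not well above background.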

How the results depend on the processing

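The log2 ratios of 10 of the 11 member probes stayed above 0 under every alternative run, and CLDN7, with 0.54 in all animals, ranged from -0.51 without replicate 3 to 1.001 without replicate 1. Of the member probes, 6 were called, against 0 with normexp values, 0 with no replicate block and 0 with the methods' analysis of variance, where 8 passed unadjusted. Leaving out single animals gave 0 to 7. For all tested probes called higher in endometrium the count of 204 became 11 with normexp values, 115 with no filter on dim probes, 35 with no replicate block, 0 with the methods' analysis of variance, 58 with the adjusted p held to 0.01, and 0 to 176 when single animals were left out. The count of 20 higher in blood became 0 with normexp values, 12 with processed signals, 8 with no filter, 3 with no replicate block, 13 with technical replicate 1 only, 0 with the analysis of variance, 0 with the adjusted p held to 0.01, and 0 to 4 without single animals. By the unadjusted p the analysis of variance passed 632 and 597 probes. Leaving out an animal lowers the number of animals to 3, and the causes of the other changes were not tested. DSG2 gave no value under the filter on all 8 channels of a tissue, which it did not meet. Members dim in blood are limited by signal over background.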
